A study of Mus musculus with 5 samples.

Results

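The mRNAs described here encode the proteins of the cytosolic ribosome and the factors that start and carry on translation. They were taken from a table of 14053 loci, of which 12375 carried a gene name, by gene name alone: ribosomal protein names (Rpl, Rps and Rplp followed by a digit) and initiation and elongation factor names (Eif and Eef followed by a digit). Names of S6 kinases (Rps6k, 10 loci), the Y-linked Eif2s3y (1 locus) and loci that join several gene names were left out. This gave 108 loci, with 22 proteins of the 40S subunit, 28 of the 60S subunit, 6 ribosomal protein paralogs or partners and 52 names of translation factors. Among the 52 are Eif2c1 to Eif2c4, older names of the Argonaute proteins Ago1 to Ago4, which bind small RNAs and are no initiation factors, so that 48 factors remain.

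Poly(A) RNA of 5 tissues of C57BL/6J mouse embryos was sequenced, with 1 library each of liver, of ventral and of dorsal pancreas at E10.5 (days of embryonic development), and of foregut and medial foregut at E8.5. No treatment or genotype other than the strain is given in the labels, and the sources used here do not say how the tissues were dissected, whether embryos were pooled or which cells were kept. The series compares pancreas and liver around the time when both arise from foregut endoderm. With 1 library per tissue there is no replicate error, no test and no p-value, and every value below describes these libraries.

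The ribosome joins a small 40S subunit, which reads the mRNA, to a large 60S subunit, which forms the peptide bond. Initiation factors bring the initiator tRNA and the capped mRNA to the 40S subunit, elongation factors move the ribosome along, and the kinase mTOR controls the translation of ribosomal protein mRNAs through a run of C and T (U in the RNA) at their start, the 5′ terminal oligopyrimidine tract. Embryonic liver at this stage buds into the surrounding mesenchyme and starts to make plasma proteins, and the pancreatic buds hold progenitors and the first endocrine cells.

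Values are FPKM (fragments mapped, per length of transcript and per mapped fragments in all), a unit per transcript length, and the number of reads behind them is unknown. Differences between libraries are on the log2(FPKM + 1) scale, with a pseudocount of 1 FPKM, so that the change of a low gene comes out too small. A locus counted as measured when its mean over the 5 libraries was at least 1 FPKM, which held for 105 of the 108 members and 11183 named loci in all. Of the 3 that did not pass, 1 was Eif2c4. The tissue labels were checked against markers. The summed FPKM of 4 hepatic markers was 3070 in liver, 289 in the ventral and 43.6 in the dorsal pancreas, against 14.5 in foregut and 11.0 in medial foregut. That of 4 pancreatic transcription factors was 0.0512 in liver, 64.9 in the ventral and 81.5 in the dorsal pancreas, against 9.89 in foregut and 2.81 in medial foregut. Markers of other cell types also differed. The 4 endoderm genes summed to 94.6 FPKM in liver, 489 in the ventral and 267 in the dorsal pancreas, against 103 in foregut and 97.7 in medial foregut, and the 3 endothelial genes to 39.4 FPKM in liver, 8.26 in the ventral and 26.1 in the dorsal pancreas, against 49.4 in foregut and 66.1 in medial foregut. The 5 muscle genes summed to 402 FPKM in liver, 12.8 in the ventral and 11.0 in the dorsal pancreas, against 4255 in foregut and 7581 in medial foregut, and the 3 macrophage genes summed to 63.7 FPKM in liver and between 0.698 and 4.52 in the other 4 libraries. Their part in the differences between libraries was not tested. From these values, fewer cells of a type and less RNA per cell cannot be told apart.

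All 108 members together held 3.47% of the summed FPKM in liver, 2.85% in the ventral and 3.02% in the dorsal pancreas, against 3.44% in foregut and 3.11% in medial foregut. The 50 proteins of the 40S and 60S subunits held 1.91% in liver, 1.57% in the ventral and 1.59% in the dorsal pancreas, against 1.84% in foregut and 1.72% in medial foregut. The 52 factor names held 1.37% in liver, 1.16% in the ventral and 1.32% in the dorsal pancreas, against 1.49% in foregut and 1.27% in medial foregut. Ribosomal proteins thus took their smallest shares in the 2 pancreatic libraries, and factors in ventral pancreas.

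Levels spanned a wide range within each role. Among the measured 40S and 60S proteins the mean over the libraries ran from 6.24 to 1574 FPKM, with a median of 92.5 FPKM. The acidic stalk protein Rplp0 was the highest, with 1719 FPKM in liver, 1269 in the ventral and 1305 in the dorsal pancreas, against 1759 in foregut and 1816 in medial foregut. The 40S protein Rps9 followed, with 1052 FPKM in liver, 865 in the ventral and 804 in the dorsal pancreas, against 889 in foregut and 952 in medial foregut. Rpl4, a core protein of the 60S subunit, had 579 FPKM in liver, 461 in the ventral and 374 in the dorsal pancreas, against 507 in foregut and 551 in medial foregut. All 3 were lower in both pancreatic libraries than in the other 3. Next in their subunits came Rps3 and Rps15 of the 40S (means of 457 and 389 FPKM) and Rpl13 of the 60S (273 FPKM). At the low end Rpl24 averaged 6.24 FPKM and Rps7 8.08 FPKM, in a particle that holds Rplp0, Rps9, Rpl24 and Rps7 in single copies. The elongation factor Eef1a1, which brings aminoacyl-tRNA to the ribosome, was the highest member, with 1985 FPKM in liver, 1699.6 in the ventral and 1675 in the dorsal pancreas, against 2053 in foregut and 1874 in medial foregut.

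**Figure D1:**
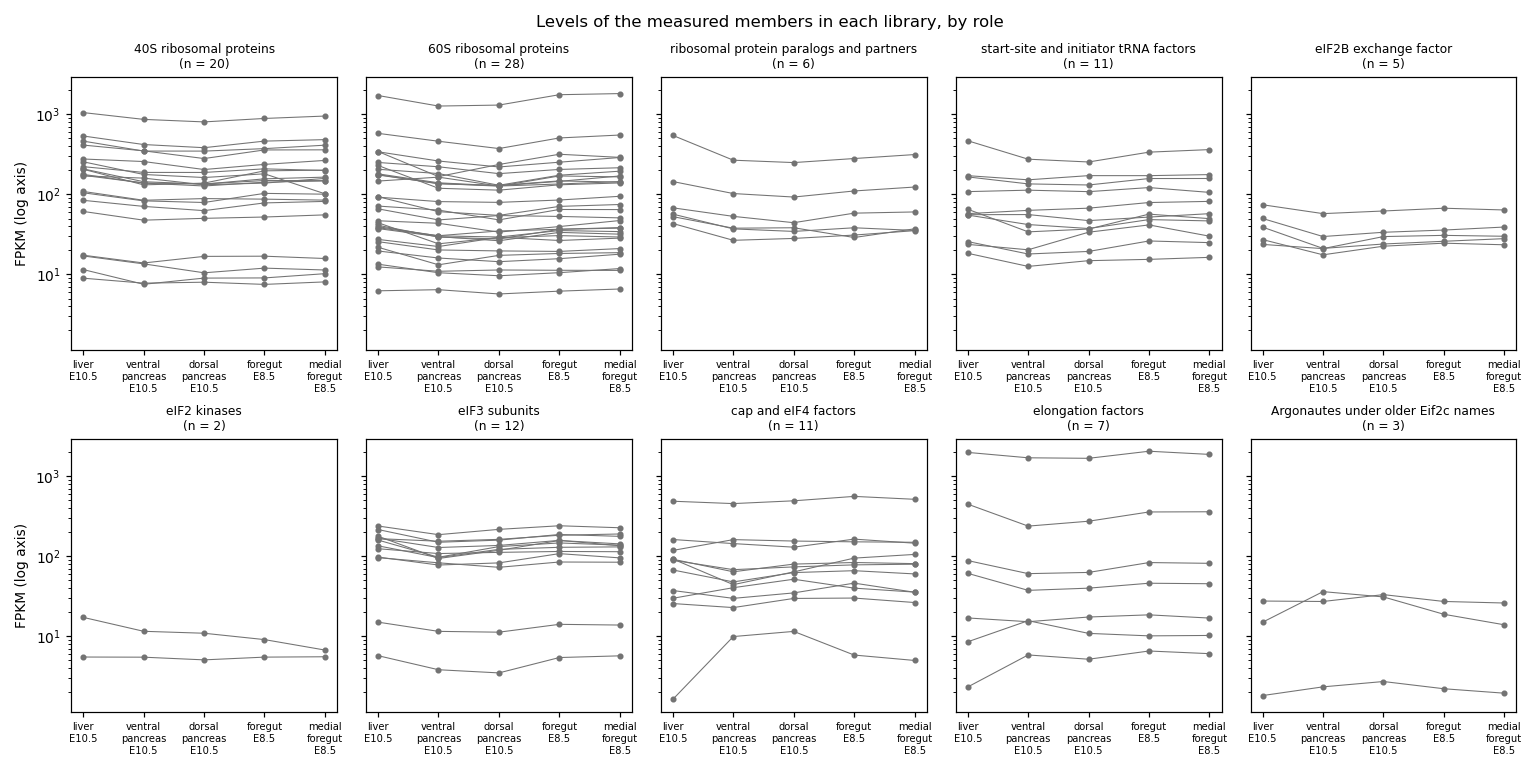
FPKM (log axis) of the 105 measured members in the 5 libraries, 1 line per locus and 1 panel per role, with the number of loci in each panel title. Lines run nearly level across the libraries, at heights from 1.64 FPKM (Eif4e3 in liver) to 2053 FPKM (Eef1a1 in foregut).

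The start regions of 6 members are shown because ribosomal protein mRNAs are known for the tract of C and T at their start. They are RefSeq sequences of GRCm38.p6, from 60 bases before to 30 bases after the annotated start of transcription, on the strand of the gene. Rps9 and Rplp0 were the highest proteins of their subunits, Rps18 and Rpl36al were past the size threshold in comparisons below, and Rps10 and Rplp2 passed it in none. They lie at chr7:3703981-3704070 (Rps9, plus strand), chr5:115559407-115559496 (Rplp0, plus), chr17:33955636-33955725 (Rps18, minus), chr17:27635215-27635304 (Rps10, minus), chr7:141447591-141447680 (Rplp2, plus) and chr12:69184038-69184127 (Rpl36al, minus). Capitals mark runs of C and T of 8 or more bases that begin with C, and the letters CTTCCG or their reverse complement CGGAAG, the core of the sites of ETS family factors. The marks can overlap, since CTTCC is itself a stretch of C and T.
Rps9: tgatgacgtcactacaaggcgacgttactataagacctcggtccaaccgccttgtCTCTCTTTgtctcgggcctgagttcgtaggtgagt
Rplp0: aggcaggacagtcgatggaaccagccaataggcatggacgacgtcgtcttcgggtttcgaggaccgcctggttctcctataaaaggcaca
Rps18: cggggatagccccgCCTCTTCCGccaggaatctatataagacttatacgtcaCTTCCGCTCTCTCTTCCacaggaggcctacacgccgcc
Rps10: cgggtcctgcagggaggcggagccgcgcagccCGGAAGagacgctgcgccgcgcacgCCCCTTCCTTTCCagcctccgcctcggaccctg
Rplp2: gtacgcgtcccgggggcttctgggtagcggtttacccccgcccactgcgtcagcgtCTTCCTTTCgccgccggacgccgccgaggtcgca
Rpl36al: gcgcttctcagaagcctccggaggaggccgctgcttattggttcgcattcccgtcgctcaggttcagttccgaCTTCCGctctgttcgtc
Rps9, Rps18, Rps10 and Rplp2 carried a run of C and T that spans the annotated start, and Rplp0 and Rpl36al held no such run in this window. The search within 50 bases of the start, described next, did find a run for Rpl36al, not wholly within the printed bases. It found none for Rplp0. Whether the annotated starts are the ones used in these tissues was not tested. Over all RefSeq promoters (250 bases before to 50 after the start), 37 of the 50 ribosomal protein genes were found, with 45 promoters, and 48 of the other members, with 65 promoters. A C followed by C or T up to a run of at least 8, on the gene's strand and within 50 bases of the start, was in 84.4% of the ribosomal protein promoters and 33.8% of those of other members, against 28.8% of all 32851 promoters. CTTCCG on either strand was in 62.2% of the ribosomal protein promoters and 47.7% of those of other members, against 16.9% of all. CACGTG, the letters bound by Myc, was in 8.89% and 16.9% of these 2 sets, against 7.15% of all. The matches are letters in a window and were not tied to the differences between libraries.

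Ribosomal protein mRNAs were higher in liver than in either pancreatic library, by small amounts that nearly all of them shared. Of the 48 measured 40S and 60S proteins, 46 had a difference above 0 between liver and ventral pancreas, against 39.7% of all named loci, and 47 between liver and dorsal pancreas, against 40% of all. The median difference, liver minus pancreas, was 0.33 with ventral and 0.43 with dorsal pancreas, while the medians of all named loci were −0.16 and −0.15. Liver was above both pancreatic libraries for 45 of the 48, against 31.9% of all named loci, and it held the highest of the 5 values for 41 of the 48, against 24.4% of all. High loci in general leaned the same way: among the 603 named loci with a mean of at least 100 FPKM, a set formed after the values were seen, liver was above both for 57.5%, with medians of 0.18 and 0.22.

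The size of these differences depends on how libraries are scaled to each other. When each library was set to the same summed FPKM, the median of all named loci shifted to −0.26 with ventral and −0.35 with dorsal pancreas, and the ribosomal protein medians were 0.25 and 0.23. When each was divided by its median ratio to the mean library, the median of all named loci was 0.06 and 0.05, and the ribosomal protein medians were 0.58 and 0.65. Liver was above both pancreatic libraries for 41 of the 48 proteins under the first of these scalings, against 24.1% of all named loci. Under the second it was so for 48 of 48, against 45.5% of all. Relative to the median of all named loci, the ribosomal proteins stood 0.49 and 0.58 higher with the values as deposited.

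With the values as deposited, all 20 measured proteins of the 40S subunit were higher in liver than in both pancreatic libraries. Their medians were 0.32 against ventral and 0.41 against dorsal pancreas. Rps3, which lies at the mRNA entry channel, had 536 FPKM in liver, against 419.7 in the ventral and 383 in the dorsal pancreas. Rps2, its neighbour on the 40S subunit, had 206 FPKM in liver, against 132 in the ventral and 138 in the dorsal pancreas. Rps4x, the X-linked form of S4, had 413 FPKM in liver, against 350.2 in the ventral and 280.5 in the dorsal pancreas. The smallest differences were those of Rps19 against ventral pancreas (0.09) and Rps10 against dorsal pancreas (0.05).

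In the 60S subunit 25 of 28 were higher in liver than in both with the values as deposited, with medians of 0.33 against ventral and 0.45 against dorsal pancreas. Rpl5, which carries 5S rRNA into the subunit, had 93.6 FPKM in liver, against 60.9 in the ventral and 54.7 in the dorsal pancreas. Rpl29, a 60S protein of eukaryotes, had 229.8 FPKM in liver, against 119 in the ventral and 113 in the dorsal pancreas, and Rpl34 had 44.3 FPKM in liver, against 24.2 in the ventral and 28.9 in the dorsal pancreas. The stalk protein Rplp1 had 343 FPKM in liver, against 167 in the ventral and 236 in the dorsal pancreas, and its partner Rplp2 had 41.1 FPKM in liver, against 29.3 in the ventral and 27.7 in the dorsal pancreas. The 3 exceptions were Rpl22, with 147 FPKM in liver, against 164 in the ventral and 127 in the dorsal pancreas, Rpl12, with 27.4 FPKM in liver, against 22.3 in the ventral and 29.1 in the dorsal pancreas, and Rpl24, with 6.25 FPKM in liver, against 6.46 in the ventral and 5.71 in the dorsal pancreas. Each of these was at or below 1 pancreatic library and above the other.

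The 6 paralogs and partners of ribosomal proteins were all highest in liver, with medians of 0.55 against ventral and 0.62 against dorsal pancreas. Rpl36al, which encodes a protein of the Rpl36a type, had 545 FPKM in liver, 267 in the ventral and 249.8 in the dorsal pancreas, against 281 in foregut and 314 in medial foregut. Rps27l, a close paralog of Rps27, had 145 FPKM in liver, 103 in the ventral and 92.7 in the dorsal pancreas, against 110.4 in foregut and 124 in medial foregut. Rps19bp1, a nucleolar protein that binds Rps19, had 43.3 FPKM in liver, 26.7 in the ventral and 28.2 in the dorsal pancreas, against 31.1 in foregut and 35.3 in medial foregut. In each of the 3 the liver value stood alone above the other 4.

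**Figure D2:**
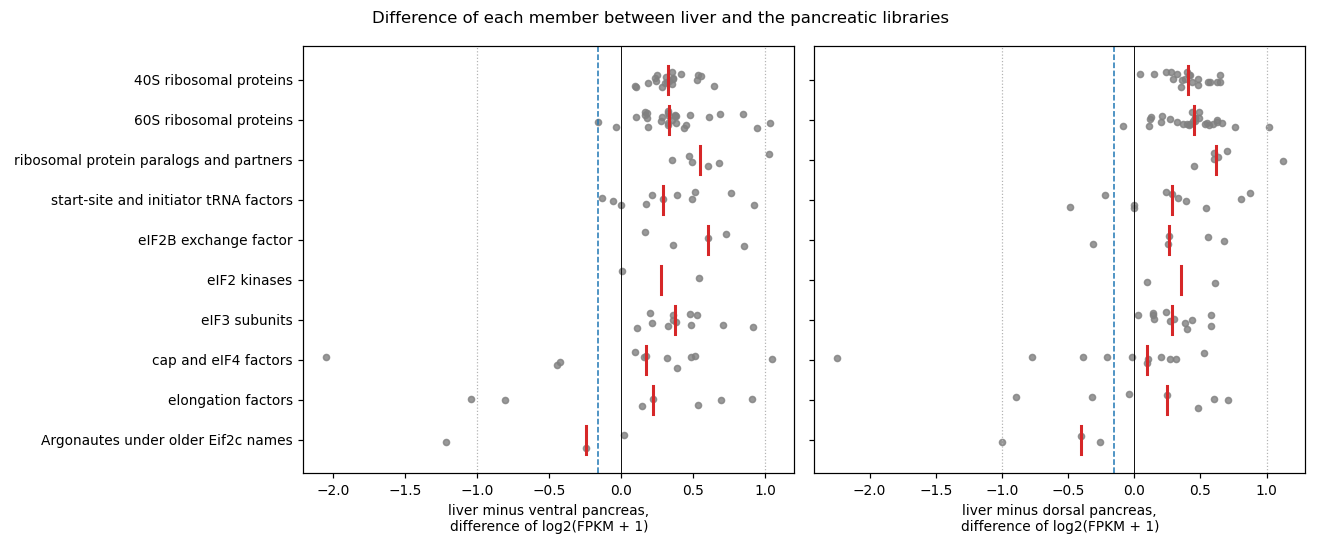
Difference of log2(FPKM + 1) between liver and ventral pancreas (left) and between liver and dorsal pancreas (right) for the 105 measured members, 1 grey point per locus, by role. Red bars are the role medians, the dashed blue line is the median of all named loci (−0.16 and −0.15), and dotted lines mark a size of 1; nearly all ribosomal protein points lie right of 0, and the lowest point in both panels is Eif4e3.

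Translation factors were also mostly higher in liver, with more exceptions. Of 48 factors, 40 were higher in liver than in ventral pancreas and 36 than in dorsal pancreas, with medians of 0.36 and 0.25. Of all named loci, 39.7% and 40% were higher. Liver was above both for 34 factors, against 31.9% of all. With equal summed FPKM the factor medians were 0.27 and 0.05, so the one against dorsal pancreas was near 0. The medians of all named loci were then −0.26 and −0.35. Above 0 were 39 and 27 factors, against 34.6% and 29.6% of all named loci. Liver was above both for 26 factors, against 24.1% of all. With median ratios the factor medians were 0.60 and 0.48, with liver above both for 41, against 45.5% of all. With the values as deposited the roles differed. All 12 measured subunits of eIF3, the scaffold that holds the 40S subunit during initiation, were higher in liver than in both (medians of 0.37 and 0.28). Eif3b, a core subunit, had 178 FPKM in liver, 93.9 in the ventral and 119 in the dorsal pancreas, against 157 in foregut and 143 in medial foregut, and Eif3d, known in human cells to bind the cap itself, had 159.6 FPKM in liver, 97.3 in the ventral and 132 in the dorsal pancreas, against 147 in foregut and 138 in medial foregut. Eif3h was the most even of them, with 124 FPKM in liver, 108 in the ventral and 112 in the dorsal pancreas, against 115 in foregut and 114 in medial foregut.

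Factors that choose the start codon and bring the initiator tRNA were less uniform, with liver above both pancreatic libraries for 6 of 11. Eif2s2, the beta subunit of the tRNA carrier eIF2, had 468 FPKM in liver, 275 in the ventral and 254 in the dorsal pancreas, against 337 in foregut and 363 in medial foregut. The alpha subunit Eif2s1, whose phosphorylation slows initiation, had 25.7 FPKM in liver, 18.03 in the ventral and 19.4 in the dorsal pancreas, against 26.2 in foregut and 25.00 in medial foregut. The gamma subunit Eif2s3x had 23.8 FPKM in liver, 20.3 in the ventral and 33.7 in the dorsal pancreas, against 41.6 in foregut and 30.1 in medial foregut, but its locus covered only 8.75% of the annotated gene. The beta and alpha subunits were thus highest or near highest in liver, and the gamma locus was highest in foregut. Eif1, which guards start codon choice, had 171 FPKM in liver, 152 in the ventral and 172 in the dorsal pancreas, against 172 in foregut and 177 in medial foregut, and Eif5, which triggers GTP hydrolysis by eIF2, had 165 FPKM in liver, 135 in the ventral and 131 in the dorsal pancreas, against 158 in foregut and 158 in medial foregut.

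The exchange factor eIF2B reloads eIF2 with GTP and is the target of the stress response. Its 5 subunits were all lowest in ventral pancreas, against 15.5% of all named loci. Eif2b4 had 39.03 FPKM in liver, 21.2 in the ventral and 24.02 in the dorsal pancreas, against 25.98 in foregut and 28.02 in medial foregut. Eif2b1 had 50.02 FPKM in liver, 29.8 in the ventral and 33.7 in the dorsal pancreas, against 35.9 in foregut and 39.1 in medial foregut. Eif2b5, the catalytic subunit, had 74.3 FPKM in liver, 57.5 in the ventral and 62.1 in the dorsal pancreas, against 67.2 in foregut and 63.9 in medial foregut. The loci of Eif2b4 and Eif2b1 spanned 563% and 503% of the annotated gene and overlapped other named loci. The median over the 5 was 0.60 for liver minus ventral and 0.26 for liver minus dorsal pancreas, and Eif2b2 and Eif2b3 ranged between 17.6 and 30.8 FPKM over all libraries. Of the eIF2 kinases, Eif2ak3 (PERK, the kinase of endoplasmic reticulum stress) stood between 5.09 and 5.56 FPKM in all 5 libraries. Eif2ak4 (GCN2, the kinase of amino acid shortage) had 17.3 FPKM in liver, 11.6 in the ventral and 10.9 in the dorsal pancreas, against 9.11 in foregut and 6.75 in medial foregut, and its locus overlapped Srp14.

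Among the cap and eIF4 factors, liver was above both for 6 of 11. The scaffold Eif4g2 was the highest of them and nearly level. It had 487 FPKM in liver, 455 in the ventral and 493 in the dorsal pancreas, against 560.2 in foregut and 515 in medial foregut. Eif4b, which helps the helicase, had 162 FPKM in liver, 144 in the ventral and 130.1 in the dorsal pancreas, against 164 in foregut and 146 in medial foregut. The helicase Eif4a2 was lower in liver, with 118 FPKM in liver, 162 in the ventral and 155 in the dorsal pancreas, against 152 in foregut and 149.7 in medial foregut, and so was the scaffold Eif4g3, with 29.9 FPKM in liver, 40.6 in the ventral and 51.7 in the dorsal pancreas, against 40.04 in foregut and 35.7 in medial foregut. Eif4e, the cap-binding protein, had 91.9 FPKM in liver, 64.1 in the ventral and 79.9 in the dorsal pancreas, against 83.7 in foregut and 81.01 in medial foregut, with a locus that covered 6.68% of its gene. Its inhibitor Eif4ebp1, an mTOR target, had 92.5 FPKM in liver, 44.3 in the ventral and 63.9 in the dorsal pancreas, against 94.9 in foregut and 106 in medial foregut, and the related Eif4ebp2 had 37.4 FPKM in liver, 29.8 in the ventral and 34.9 in the dorsal pancreas, against 46.2 in foregut and 35.6 in medial foregut. Eif4ebp1 was lowest in the pancreatic libraries and Eif4ebp2 in ventral pancreas.

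In the elongation group Eif5a, which helps the ribosome past proline stretches, had 448 FPKM in liver, 238 in the ventral and 274 in the dorsal pancreas, against 358 in foregut and 360.0 in medial foregut. Eef1g, a subunit of the exchange complex of Eef1a1, had 88.5 FPKM in liver, 60.8 in the ventral and 62.9 in the dorsal pancreas, against 83.5 in foregut and 81.7 in medial foregut. Eef1e1, a protein of the synthetase complex that carries an elongation factor name, had 61.3 FPKM in liver, 37.6 in the ventral and 40.01 in the dorsal pancreas, against 46.1 in foregut and 45.4 in medial foregut. All 3 had their lowest value in ventral pancreas and their highest in liver. The translocase Eef2 was listed on the strand opposite to its annotation, at 15.2 to 18.6 FPKM, and no level of Eef2 mRNA is read from it. Its kinase Eef2k had 8.56 FPKM in liver, 15.7 in the ventral and 10.9 in the dorsal pancreas, against 10.1 in foregut and 10.3 in medial foregut, from a locus of 0.438% of the gene.

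Few members passed a size of 1 on this scale (a factor of 2 in FPKM + 1) with at least 5 FPKM in the higher library. For liver minus ventral pancreas 3 members were higher (Eif4ebp1, Rplp1 and Rpl36al), against 4.38% of all named loci, and 3 were lower (Eif4e3, Eif2c1 and Eif5a2), against 9.73%. For liver minus dorsal pancreas 4 members passed, with Rpl36al and Rpl29 higher and Eif4e3 and Eif2c1 lower, against 16.2% of all named loci in either direction. Past the size against both, Rpl36al was higher, against 3.44% of all named loci, and Eif4e3 and Eif2c1 were lower, against 5.93%. With the values as deposited each of these counts is 1 to 4 of 105, below the share of all loci. The split of the calls moved with the scaling: with equal summed FPKM there were 0 higher and 3 lower members with ventral pancreas, against 4.66% and 16.3% of all named loci, and again 0 and 3 with dorsal pancreas, against 5.54% and 18.7%. With median ratios there were 10 higher and 1 lower with ventral pancreas, against 7.22% and 6.93% of all, and 4 and 1 with dorsal pancreas, against 8.02% and 7.96%. The 10 of 105 are thus above the share of all loci under that scaling, and the other counts below it.

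Rpl36al (mm9, chr12:70283195-70289124) differed by 1.03 from ventral and 1.12 from dorsal pancreas. Its locus spanned 438% of the annotated gene and overlapped Mgat2, so reads of a neighbour can be in its value. Rpl29 (chr9:106331496-106334079) differed by 0.94 and 1.02, just inside the size for dorsal and just outside it for ventral pancreas, and had 58 pseudogenes like its coding sequence. Rplp1 (chr9:61756157-61762387) differed by 1.04 and 0.54, and Eif4ebp1 (chr8:28370804-28425506) by 1.05 and 0.53. The loci of Rplp1 and Eif4ebp1 spanned 495% and 335% of the annotated genes. Nearest under the size for liver minus ventral pancreas, after Rpl29, stood Eif1a, which helps the scanning ribosome find the start codon, with a difference of 0.92. For liver minus dorsal pancreas they were Eif5a2 (−0.89) and Eif2s2 (0.88).

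The lower members were low in absolute terms, except for an Argonaute. Eif4e3 (chr6:99572017-99575183), a cap-binding protein of a class apart from Eif4e, had 1.64 FPKM in liver, 9.95 in the ventral and 11.5 in the dorsal pancreas, against 5.84 in foregut and 5.004 in medial foregut. Its difference of −2.05 from ventral and −2.25 from dorsal pancreas was the largest of any measured member, and its locus covered 7.61% of the annotated gene. Eif5a2 (chr3:28680210-28697757), the second form of Eif5a, had 2.33 FPKM in liver, 5.86 in the ventral and 5.18 in the dorsal pancreas, against 6.57 in foregut and 6.08 in medial foregut. Eif2c1 (Ago1; chr4:126112269-126145936) had 15.03 FPKM in liver, 36.2 in the ventral and 31.1 in the dorsal pancreas, against 18.9 in foregut and 13.96 in medial foregut. Eif4e3 and Eif5a2 were lowest in liver among the 5 libraries, and Eif2c1 was highest in the pancreatic libraries and lowest in medial foregut and liver. Of the other Argonautes, Eif2c2 (Ago2, which cuts its target RNA) had 27.6 FPKM in liver, 27.3 in the ventral and 33.2 in the dorsal pancreas, against 27.3 in foregut and 26.1 in medial foregut, Eif2c3 ranged from 1.82 to 2.73 FPKM and Eif2c4 from 0.428 to 1.39 FPKM.

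**Figure D3:**
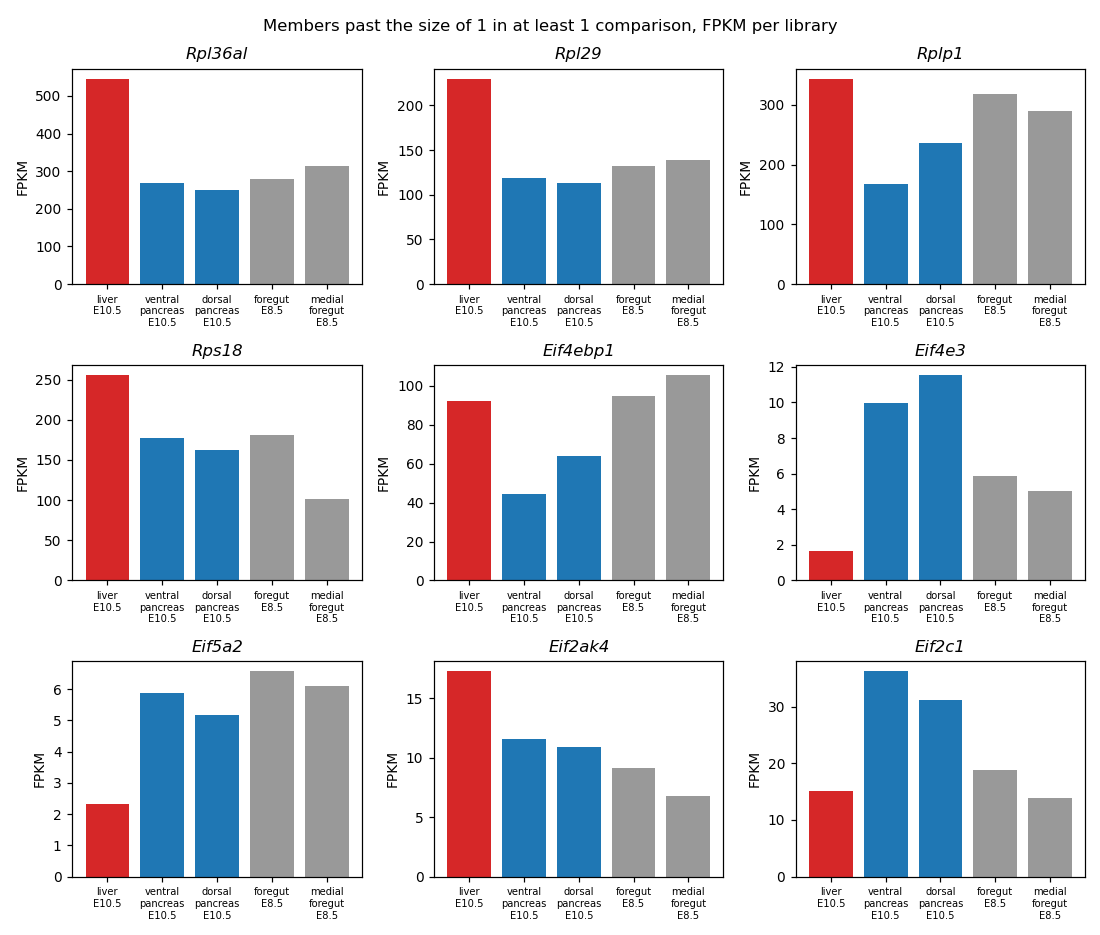
FPKM in each of the 5 libraries (1 bar per library, axes start at 0) for the 9 members past a size of 1 in at least 1 comparison of 2 libraries; red is liver, blue the pancreatic libraries and grey the E8.5 libraries. Rpl36al and Rpl29 have a single high bar in liver, Eif4e3 and Eif5a2 a single low one (1.64 and 2.33 FPKM), and Eif2c1 is high in both pancreatic libraries (36.2 and 31.1 FPKM).

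Between ventral and dorsal pancreas the ribosome genes differed little. No member passed the size in either direction, against 3.63% of all named loci higher and 2.74% lower in ventral pancreas. The 48 ribosomal proteins had a median of 0.09 for ventral minus dorsal, with 34 above 0 against 51.8% of all named loci. With equal summed FPKM 21 of 48 were above 0, against 39.3% of all, and the median was −0.02. The factors lay the other way, with a median of −0.10 and 15 of 48 above 0, and −0.22 and −0.13 under the 2 other scalings. With the values as deposited, dorsal pancreas held the lowest of the 5 values for 32 of 48 ribosomal proteins, against 12.2% of all named loci. Ventral pancreas did so for 30 of 48 factors, against 15.5%. As shares of summed FPKM, ribosomal proteins stood at 1.57% in ventral and 1.59% in dorsal pancreas, so their ranking depends on the scaling. Largest in size was the difference of Eif2s3x (−0.70), followed by Eif4ebp1 (−0.52). Rplp1 (−0.50) was lower in ventral pancreas too, while Rpl39, at the peptide exit tunnel, was higher, with 182 FPKM in the ventral and 130.0 in the dorsal pancreas. Summed endocrine markers, at 378 FPKM in ventral and 2079 FPKM in dorsal pancreas, and red cell markers (2 of 6 found), at 114 and 26.5 FPKM, differed between the same libraries, and their part in these values was not tested.

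Against the E8.5 foregut, the pancreatic buds had less ribosomal protein mRNA and the liver somewhat more. The median of the 48 proteins was 0.23 for liver minus foregut and 0.15 for liver minus medial foregut, with 47 and 42 above 0, against 44.1% and 44.8% of all named loci. It was −0.11 and −0.15 for ventral pancreas minus foregut and minus medial foregut, with 12 and 5 above 0, against 58.9% and 59.5% of all. For dorsal pancreas it was −0.16 and −0.25, with 6 and 6 above 0, against 59% and 60.1% of all. With the values as deposited, the medians of all named loci ran the other way, at −0.08 and −0.07 for liver, 0.11 and 0.11 for ventral pancreas and 0.08 and 0.10 for dorsal pancreas. These 6 comparisons share libraries. With median ratios, which set typical loci level, the medians of all named loci lay between −0.02 and 0.03 in these comparisons. Under the 2 other scalings the signs of the ribosomal protein medians were the same, but the counts moved. With equal summed FPKM 35 and 44 of 48 were above 0 for liver minus foregut and minus medial foregut, against 35.9% and 45.4% of all named loci. For ventral pancreas 10 and 17 were above 0, against 55.0% and 66.8% of all. For dorsal pancreas 9 and 20 were above 0, against 64.9% and 75.7% of all. The median for dorsal pancreas minus medial foregut was −0.04, and that of all named loci was 0.31.

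For the factors the medians were 0.06 and 0.08 for liver, −0.29 and −0.24 for ventral pancreas and −0.17 and −0.12 for dorsal pancreas, each minus foregut and minus medial foregut. Above 0 were 27 and 33 of 48 for liver, against 44.1% and 44.8% of all named loci. For ventral pancreas 6 and 6 were above 0, against 58.9% and 59.5% of all. For dorsal pancreas 6 and 11 were above 0, against 59% and 60.1% of all. With equal summed FPKM, liver minus foregut turned to −0.08 and dorsal pancreas minus medial foregut to 0.07. The medians of all named loci were −0.22 and 0.31 in these comparisons. With the values as deposited, none of the 12 eIF3 subunits and none of the 5 eIF2B subunits was higher in ventral pancreas than in either E8.5 library. Of all named loci, 58.9% were higher there than in foregut and 59.5% than in medial foregut. The summed muscle markers given above, at 402 FPKM or less in each E10.5 library and at 4255 FPKM or more in each E8.5 library, moved with the same comparisons, and their part in the differences between stages was not tested.

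Single members past the size between stages were few. For liver, Eif4e3 and Eif5a2 were lower than both E8.5 libraries, against 6.73% of all named loci, and no member was higher, against 5.8%. Against medial foregut alone, Rps18 and Eif2ak4 were higher in liver, against 6.58% of all named loci, while Eif4e3 and Eif5a2 were lower, against 8.63%; against foregut alone 0 were higher and the same 2 lower, against 6.63% and 8.23%. For ventral pancreas, Eif4ebp1 was lower than both, against 3.67%, and none was higher, against 7.06%. Against foregut alone the counts were 0 higher (8.18% of all) and 1 lower (4.31%), and against medial foregut 1 higher, Eif2c1 (8.4%), and 1 lower (5.09%). For dorsal pancreas no member passed against both, with 4.82% of all named loci higher and 3.1% lower. Eif2c1 and Eif4e3 were higher in dorsal pancreas than in medial foregut, against 6.02% of all, with none lower (4.58%), and none passed against foregut (5.48% and 3.86%).

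Rps18 (chr17:34086851-34103915) was the ribosomal protein with the widest spread over the libraries, with 256 FPKM in liver, 177 in the ventral and 163 in the dorsal pancreas, against 181 in foregut and 102 in medial foregut. Its difference was 0.82 for foregut minus medial foregut, the largest of any member between these 2, and its locus spanned 426% of the gene and overlapped Vps52 and B3galt4. No member passed the size between foregut and medial foregut, against 0.519% of all named loci higher and 0.304% lower. The ribosomal protein median was −0.06, with 16 of 48 above 0 against 50.6% of all named loci. With equal summed FPKM this turned to 0.08 with 38 of 48 above 0, so no direction is given. The factor median was 0.05, with 32 of 48 above 0, and with equal summed FPKM it was 0.20, with 47 of 48 above 0 against 71.8% of all named loci.

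The members were even across the libraries. The SD of log2(FPKM + 1) over the 5 libraries had a median of 0.20 over the 105 measured members and 0.18 over the ribosomal proteins, against 0.31 over all named loci. The highest value of a member exceeded the lowest by a median factor of 1.41. Smallest in spread were Eif2ak3, Rpl30, Rpl24, Eif3h and Eif1ax. Rpl30 had 12.4 FPKM in liver, 10.96 in the ventral and 11.4 in the dorsal pancreas, against 11.3 in foregut and 11.2 in medial foregut, and Eif1ax, the X-linked form of Eif1a, had 108 FPKM in liver, 113 in the ventral and 108 in the dorsal pancreas, against 122 in foregut and 106 in medial foregut. Eif4e3, Eif2c1, Eif4ebp1, Eif5a2 and Rps18 had the widest spread.

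Within a library, the share of a paralog in the sum with its partner does not depend on the scaling between libraries. Rpl22l1, a paralog of the 60S protein Rpl22, made up 31.7% of their sum in liver, 24.4% in the ventral and 25.8% in the dorsal pancreas, against 30.2% in foregut and 29.5% in medial foregut. The 2 pancreatic libraries were thus the lowest. For Rpl7l1 with Rpl7 the share was 24.5% in liver, 21.3% in the ventral and 21.4% in the dorsal pancreas, against 18.4% in foregut and 17.7% in medial foregut. Rps27l made up 91.1% to 93.1% of the sum with Rps27 in every library. Rps27 had 9 pseudogenes like its coding sequence and Rps27l had 0. How reads shared with such copies were counted is unknown, so this share is uncertain as a ratio of the 2 mRNAs. Rps4y2, an older name of Rps4l, stood between 7.46% and 12.02% with Rps4x, from a locus of 211857 bp that overlapped Tmtc1.

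Among the factors, Eif1a made up 37.6% of the sum with its X-linked form Eif1ax in liver, 23.2% in the ventral and 25.4% in the dorsal pancreas, against 31.8% in foregut and 32.0% in medial foregut. Eif4e3 made up 1.75% of the sum with Eif4e in liver, 13.4% in the ventral and 12.6% in the dorsal pancreas, against 6.53% in foregut and 5.82% in medial foregut. Eif5a2 made up 0.518% of the sum with Eif5a in liver and 1.66% to 2.40% in the other 4. Eif4a2 made up 63.7% of the sum with Eif4a3, a helicase of the exon junction complex, in liver, 77.1% in the ventral and 71.2% in the dorsal pancreas, against 69.6% in foregut and 71.3% in medial foregut. The loci of Eif4a2 and Eif4a3 spanned 412% and 273% of the annotated genes and overlapped Rfc4 and Gaa. That of Eif1a overlapped Tmed7, and those of Eif4e3 and Eif4e covered 7.61% and 6.68% of their genes. These shares may therefore differ from those of the mRNAs. Liver stood at 1 end of the 5 values in each of the 4 pairs above. It did so too for Eif1b with Eif1 (25.1% in liver, 28.2% to 31.6% elsewhere) and for Eif4g3 with Eif4g2 (5.78% in liver, 6.48% to 9.49% elsewhere), whereas Eif4e2 with Eif4e lay between 48.0% and 51.5% in all. As single loci, 24.4% of all named loci were highest and 39.5% lowest in liver, so an end position there is common. Such a share was not taken over pairs of genes, and Eif4e3 and Eif5a2 were already named for low values in liver.

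**Figure D4:**
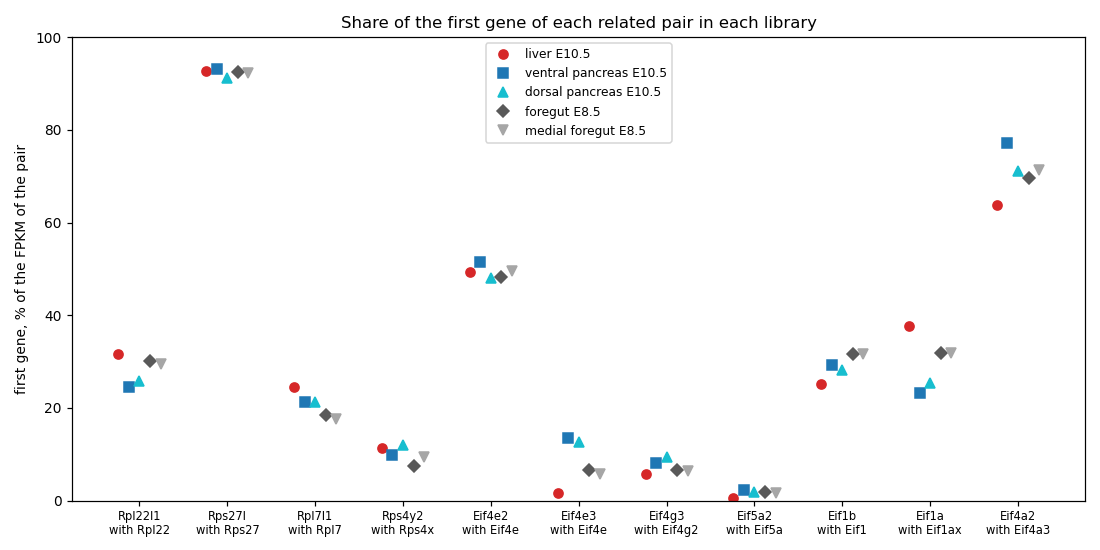
Share of the first gene of each of 11 related pairs in the summed FPKM of the pair (%), 1 symbol per library. Liver (red) lies at the top of the pair Eif1a with Eif1ax (37.6%) and at the bottom of the pairs Eif4e3 with Eif4e (1.75%) and Eif4a2 with Eif4a3 (63.7%).

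Ribosomal protein genes have many processed pseudogenes, and the sources used here do not say how reads shared with such copies were counted, so absolute levels are uncertain. Of 13542 annotated mouse pseudogenes (GENCODE M21), a median of 8.5 matched the coding sequence of a ribosomal protein at 90% identity over 80% of its length, with 76 for Rpl21 and 0 for 4 genes. The 13 proteins with 0 to 4 copies had a median level of 152 FPKM, the 27 with 5 to 14 copies 71.0 FPKM and the 10 with 15 or more copies 58.5 FPKM. The ranges overlapped. Across the 50 genes Spearman's rho between copies and mean level was −0.23, and between mRNA length and level 0.21, as a description over genes of the same libraries. Over the other members rho between copies and mean level was 0.36, in the other direction. Whether these copies touch the differences between libraries was not tested.

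**Figure D5:**
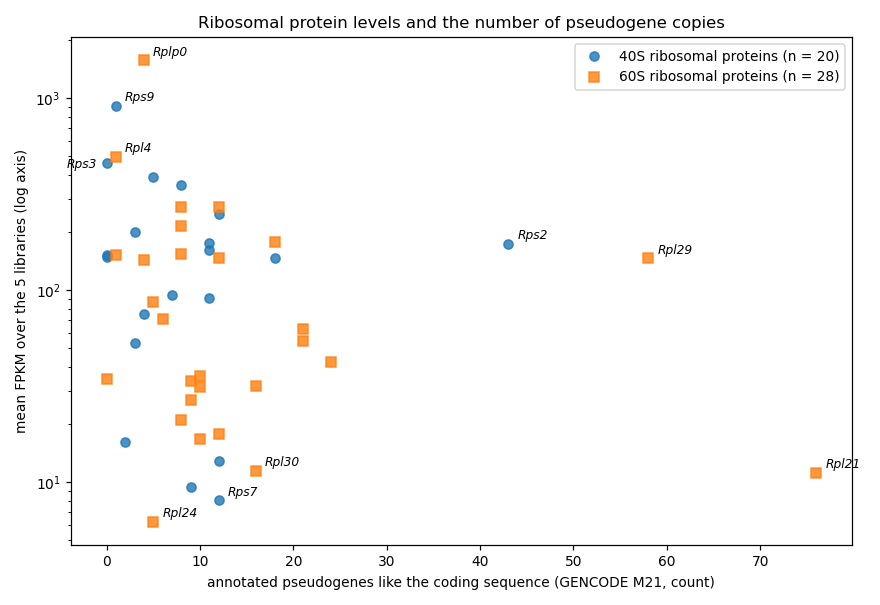
Mean FPKM over the 5 libraries (log axis) of the 48 measured proteins of the 40S (circles) and 60S (squares) subunits against the number of annotated pseudogenes like their coding sequence. The 2 highest proteins, Rplp0 and Rps9, have 4 and 1 copies, and Rpl21 has 76 copies at a mean of 11.2 FPKM.

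By name, all 108 members lay on the annotated chromosome in GENCODE, and 105 of them on its strand, with Eef2 among the 3 that were not. Loci of 7 members covered under 30% of the annotated span (Eef2k, Eif2s3x, Eif4e, Eif4e3, Eif4enif1, Rpl11 and Rpl6), and 29 overlapped another named locus. Since library strand is not marked in the labels' protocol, reads of genes that overlap on opposite strands cannot be told apart. Among the 66 members whose locus had the annotated strand, at least 30% and at most 3 times the annotated span and no overlap, a choice made after the data were seen, the ribosomal protein medians relative to all named loci stood within 0.1 of those over all members.

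Genes that make and serve the ribosome were mostly higher in liver too. For comparison, 39.7% of all named loci were higher in liver than in ventral and 40% than in dorsal pancreas. Of 41 measured ribosome biogenesis genes, 40 were higher in liver than in ventral and 40 than in dorsal pancreas, with medians of 0.57 and 0.47, and Nhp2, of the pseudouridylation complex, was the 1 past the size against ventral pancreas, where 4.38% of all named loci were higher. Ncl (nucleolin) had 539 FPKM in liver, 307 in the ventral and 305 in the dorsal pancreas, against 486 in foregut and 388 in medial foregut, and Npm1 (nucleophosmin) had 514 FPKM in liver, 321 in the ventral and 368 in the dorsal pancreas, against 591 in foregut and 548 in medial foregut. Of 20 cytosolic aminoacyl-tRNA synthetases and their scaffold proteins, 20 and 19 had a higher level in liver (medians of 0.56 and 0.41), and 1 of the 20, Yars, passed the size against ventral pancreas, near the 4.38% of all named loci. The 7 release and recycling factors had medians of 0.39 and 0.35, but only 5 and 4 of the 7 were higher in liver. The 52 mitochondrial ribosomal proteins had medians of 0.43 and 0.48, with 49 and 48 higher in liver. Past the size were 3 of them against ventral pancreas, near the 4.38% of all named loci, and 2 against dorsal pancreas, with 16.2% of all named loci past it in either direction. Against the E8.5 libraries the mitochondrial medians were 0.51 and 0.41 for liver, 0.04 and 0.01 for ventral pancreas and 0.03 and −0.03 for dorsal pancreas, each minus foregut and minus medial foregut.

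The lists of regulators differed among themselves. The 15 measured integrated stress response genes, targets of ATF4 and related factors, had medians of 0.59 and 0.70 for liver minus ventral and minus dorsal pancreas. Asns, Phgdh, Psat1, Shmt2 and Herpud1 were past the size against both, which is 5 of 15 against 3.44% of all named loci, and none was lower against both. Past the size the other way were Ddit4 against ventral pancreas (−1.37) and Sesn2 against dorsal pancreas (−1.354). The first 4 are metabolic enzymes that make amino acids or single-carbon units, and Herpud1 serves protein degradation at the endoplasmic reticulum. Asns, asparagine synthetase, had 59.8 FPKM in liver, 12.9 in the ventral and 14.95 in the dorsal pancreas, against 26.9 in foregut and 29.1 in medial foregut. Psat1, of serine synthesis, had 308 FPKM in liver, 64.03 in the ventral and 51.4 in the dorsal pancreas, against 88.8 in foregut and 62.9 in medial foregut. The 18 mTOR pathway genes had medians of −0.15 and −0.27, near those of all named loci, with Sesn1 and Sesn3, sestrins that restrain mTOR, past the size and lower in liver than in both, which is 2 of 18 against 5.93% of all named loci. The kinase Mtor itself had 13.01 FPKM in liver, 10.1 in the ventral and 12.04 in the dorsal pancreas, against 12.6 in foregut and 10.1 in medial foregut. Of 8 Myc family genes, only Mycl1 was past the size between liver and the pancreatic libraries, lower in liver than in both (5.93% of all named loci). It had 4.58 FPKM in liver, 21.6 in the ventral and 16.6 in the dorsal pancreas, against 23.2 in foregut and 13.9 in medial foregut. Myc had 32.1 FPKM in liver, 17.1 in the ventral and 15.95 in the dorsal pancreas, against 21.2 in foregut and 15.6 in medial foregut. In other comparisons Mycn was past the size. It was lower in liver than in foregut (8.23% of all named loci) and lower in ventral pancreas than in foregut (4.31%) and dorsal pancreas (2.74%). The 13 poly(A) and cap-binding genes had medians of 0.04 and 0.07, with 1 of them, Lin28b, past the size and higher against ventral pancreas (4.38% of all named loci), with 18.2 FPKM in liver, 5.84 in the ventral and 16.6 in the dorsal pancreas, against 27.3 in foregut and 19.1 in medial foregut.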

How the data were processed

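RNA of 5 tissues was measured in 1 paired-end library each, from poly(A) RNA with random-hexamer priming per the labels' protocols. The authors deposited 1 table of FPKM values per locus, with names, strands and mm9 intervals per the file headers; whether starts count from 0 or 1 is not stated there. The submitters' processing notes list TopHat 1.33, Cufflinks 1.3.0 and mm9; how libraries were scaled to each other was not stated. Depth in reads is unknown: of 329 loci under 0.2 FPKM in both E8.5 libraries only 4 shared the most common ratio, so no reads were recovered.

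Members were chosen by gene name, and they, the related gene lists and the tests were chosen with earlier results of these data known. Differences are of log2(FPKM + 1), counted at a size of 1 or more with 5 FPKM in the higher library, over loci with a mean of at least 1 FPKM (Python 3.11.15, pandas 2.3.3, numpy 2.4.6); the steps were tested on simulated data. There are no replicates, so no test was run. Genes named are those past the size, the 3 highest of each role, the widest and narrowest in spread, fixed pairs and regulators, and up to 4 per list; others named beside them were chosen after their values were seen. Members were matched by name to GENCODE M21 (GRCm38), used for chromosome, strand and span, and pseudogenes were found with blastn 2.17.0; promoters are from RefSeq (GRCm38.p6). Alternatives were other pseudocounts, scalings, sizes, filters and sets of loci. Values of some members are not reported here by name.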

Additional observations from a re-analysis of the deposited data

How the results depend on the processing

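The ribosomal protein medians relative to all named loci moved by less than 0.1 in all 70 alternatives tried. The median of all named loci is subtracted within each setting, so a rescaling of whole libraries nearly cancels. The alternatives that change only the scaling could therefore hardly move these values. The factor median relative to all named loci, liver minus ventral pancreas, was 0.41 with a pseudocount of 5 FPKM, against 0.52 as reported. Scaling by median ratios turned the sign of the median of all named loci in all 10 comparisons: to 0.061 and 0.046 for liver minus ventral and minus dorsal pancreas, 0.020 and 0.026 for liver minus foregut and minus medial foregut, −0.019 and −0.022 for ventral pancreas minus foregut and minus medial foregut, and −0.014 and −0.0045 for dorsal pancreas minus foregut and minus medial foregut, and likewise between ventral and dorsal pancreas and between foregut and medial foregut (−0.012 and −0.0058).

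Counts of members past the size moved under several settings, and the share of all named loci in either direction is given in brackets. For liver minus ventral pancreas the 6 members (14.1%) became 3 with equal summed FPKM (20.996%), 11 with median ratios (14.1%), 1 at a size of 2 (4.44%), 23 at a factor of 1.5 (29.1%), and 2 of 65 among narrow loci without overlap, a set chosen after seeing the data. For liver minus dorsal pancreas the 4 (16.2%) became 2 with a pseudocount of 5 FPKM (9.997%), 1 at a size of 2 (6.04%), 24 at a factor of 1.5 (30.2%) and 2 among narrow loci. Against both pancreatic libraries the 3 (9.37%) became 5 with median ratios (9.51%), 1 at a size of 2 (2.83%), 14 at a factor of 1.5 (20.2%) and 1 among narrow loci. For liver against both E8.5 libraries the 2 (12.5%) became 0 with a pseudocount of 5 FPKM (7.90%) and at a size of 2 (4.87%), 5 at a factor of 1.5 (21.6%), and 1 among loci on the annotated strand with at least 30% of the span and among narrow loci. For ventral pancreas against both E8.5 libraries the 1 (10.7%) became 0 at a size of 2 (3.82%) and among narrow loci, and 5 at a factor of 1.5 (19.02%). At a factor of 1.5, 1 member passed between ventral and dorsal pancreas (12.8%), 1 between foregut and medial foregut (4.44%) and 2 for dorsal pancreas against both E8.5 libraries (14.5%). The cause of these moves was not tested.

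Without Eef1a1, Eif4g2, Rpl4, Rplp0 and Rps9 the share of the members was 2.34% in liver, 1.86% in ventral pancreas, 1.98% in dorsal pancreas, 2.21% in foregut and 2.00% in medial foregut. No paired analysis was possible because each group has 1 library, and for the same reason no library could be left out of a group.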

Other observations

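A further 23 loci joined a name of this kind with the names of neighbouring genes, and were not used because their value belongs to no single gene. Of these, 18 were higher in liver than in both pancreatic libraries, against 31.9% of all named loci. Their medians were 0.23 for liver minus ventral and 0.29 for liver minus dorsal pancreas over the 23. The joined locus of Rpl8 and Commd5 had 482 FPKM in liver, 319 in the ventral and 346 in the dorsal pancreas, against 409 in foregut and 415 in medial foregut. The joined locus of Eef1b2 and Ndufs1 had 559 FPKM in liver, 419 in the ventral and 382 in the dorsal pancreas, against 499.5 in foregut and 500.5 in medial foregut. In the joined locus that holds the helicase Eif4a1, with Cd68 and 3 other genes, the values were 216 FPKM in liver, 177 in the ventral and 177 in the dorsal pancreas, against 188 in foregut and 217 in medial foregut. The lowest values of these 3 loci were in the pancreatic libraries, but this did not hold for all 23. The joined locus of Rpl36, Safb and 2410015M20Rik was lowest in liver. It had 45.0 FPKM there, 54.1 in the ventral and 57.5 in the dorsal pancreas, against 59.8 in foregut and 57.2 in medial foregut. The joined locus of Golga1 and Rpl35 was lowest in medial foregut, at 8.57 FPKM.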
